A study of Homo sapiens with 2 samples.

Results

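The genes described here are 39 leukocyte surface molecules, 35 of them named by their CD (cluster of differentiation) numbers and the others known as CD10 (MME), CD20 (MS4A1), CD43 (SPN) and CD45 (PTPRC). An interaction was assigned to a member when at least 1 of its 2 bins of 5 kb overlapped the body of the gene or the 10 kb on either side of it in GENCODE on hg38. By this rule, 139 of the 49245 listed interactions belonged to the members. The interactions came from HiChIP, which combines chromatin immunoprecipitation with chromosome conformation capture, in TCF3_KO HAL-01 cells. HAL-01 is a B-cell precursor acute lymphoblastic leukemia cell line with t(17;19), the translocation that creates the fusion gene TCF3::HLF. The cells stably expressed Cas9GFP, their wild-type TCF3 had been knocked out with a guide RNA and selected for, and the pull-down used the E2A antibody (CST #12258). In these cells the antibody therefore addressed the fusion protein. The series held 1 condition in 1 cell line with 2 replicates, which the authors merged before they called interactions, so no value below has a replicate error, no group comparison exists and no test was made.

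CD molecules are proteins of the leukocyte surface that are used to recognize cell types and stages: CD34 marks stem and progenitor cells, CD10, CD22, CD24, CD38 and CD72 mark B-lineage cells, and CD45 is carried by almost all nucleated blood cells. Several of them act as receptors or ligands between cells, such as CD86, which binds CD28 on T cells, and CD47, which binds SIRPα on phagocytes and inhibits engulfment. TCF3::HLF contacts DNA through the basic leucine zipper of HLF, which recognizes palindromes such as TTACGTAA, whereas the DNA-binding domain of TCF3 is absent from the fusion. A HiChIP interaction records that read pairs joined a pair of bins in chromatin pulled down with the antibody. It does not measure expression, and no expression was measured here.

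The exact HLF motif, TTACGTAA or TTATGTAA on either strand, occurred at 93 positions in the bins of the member interactions, 6 as TTACGTAA and 87 as TTATGTAA. The following stretches of 30 bases are from the plus strand of hg38 with the motif in capitals, and TTACATAA is TTATGTAA read on the minus strand. They are shown because each lies in a bin that several interactions of a member shared, or in the partner bin of an interaction described below.
CD44 partner bin, intron of SLC1A2, chr11:35340827-35340856: tctctggactcTTATGTAAcaagttacata
CD44 partner bin, intron of SLC1A2, chr11:35340912-35340941: tcaaaaggaaaTTATGTAAgcataatcctg
CD44 partner bin, intron of PDHX, chr11:34988480-34988509: ccacatactagTTACATAActactgtatga
CD44 partner bin, intron of a noncoding gene, chr11:35043982-35044011: ttctccaagtcTTACGTAAtgaactacaac
CD47 partner bin, intergenic beside IFT57, chr3:108224174-108224203: ttttcaggaagTTACGTAAcacagtatgaa
CD86 partner bin, intergenic beside MIX23, chr3:122358578-122358607: gtctgtggttaTTACATAAtctggcaagag
CD96 partner bin, intergenic beside CD200, chr3:112377065-112377094: tgataatgatgTTACGTAActctgattcat
CD84 member bin, intron of CD84, chr1:160565145-160565174: gatcattgacaTTATGTAAaaaagaaaacc
MME member bin, intron of MME, chr3:155082558-155082587: gccagcatgccTTACATAAccattaagtaa
CD164 partner bin, intron of AFG1L, chr6:108439105-108439134: atctggagaggTTACGTAAcaggctaaaac
CD38 partner bin, intron of PROM1, chr4:16017053-16017082: ttatataatgaTTATGTAAagttaggaagg
A match of letters describes the sequence only, and occupancy of these positions was not measured here.

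At least 1 interaction was listed for 31 of the 39 members (79.5%, Wilson 95% interval 64.5 to 89.2), beside 64.5% of the 19970 protein-coding genes taken by the same rule. The interactions were spread unevenly. CD44, the hyaluronan receptor, had 19, and MME, a membrane metalloprotease, and PTPRC, a receptor tyrosine phosphatase, had 17 each. These 3 genes accounted for 53 interactions, or 38.1% of all member interactions. With CD82, which had 10, they were the 4 members with 10 or more, a share of 10.3% beside 10.1% of protein-coding genes, which is near the background. Another 6 members had 5 to 9 (CD86 with 8, CD200 with 7, and CD27, CD47, CD84 and CD247 with 5 each), 11 had 2 to 4, 10 had 1 and 8 had none listed. Long genes have larger windows, and per 100 kb of window, with interactions counted for each gene they touch, the members had 5.22 interactions, all protein-coding genes 4.06 and the 43 other genes with a CD number 4.47. CD27, a short gene, had the highest value among the members at 18.7 per 100 kb, followed by CD44 at 16.7, whereas CD96, whose body spans 373 kb, had 0.763. All 5 interactions of CD27 came from 1 bin in its downstream flank, outside the gene body.

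**Figure D1:**
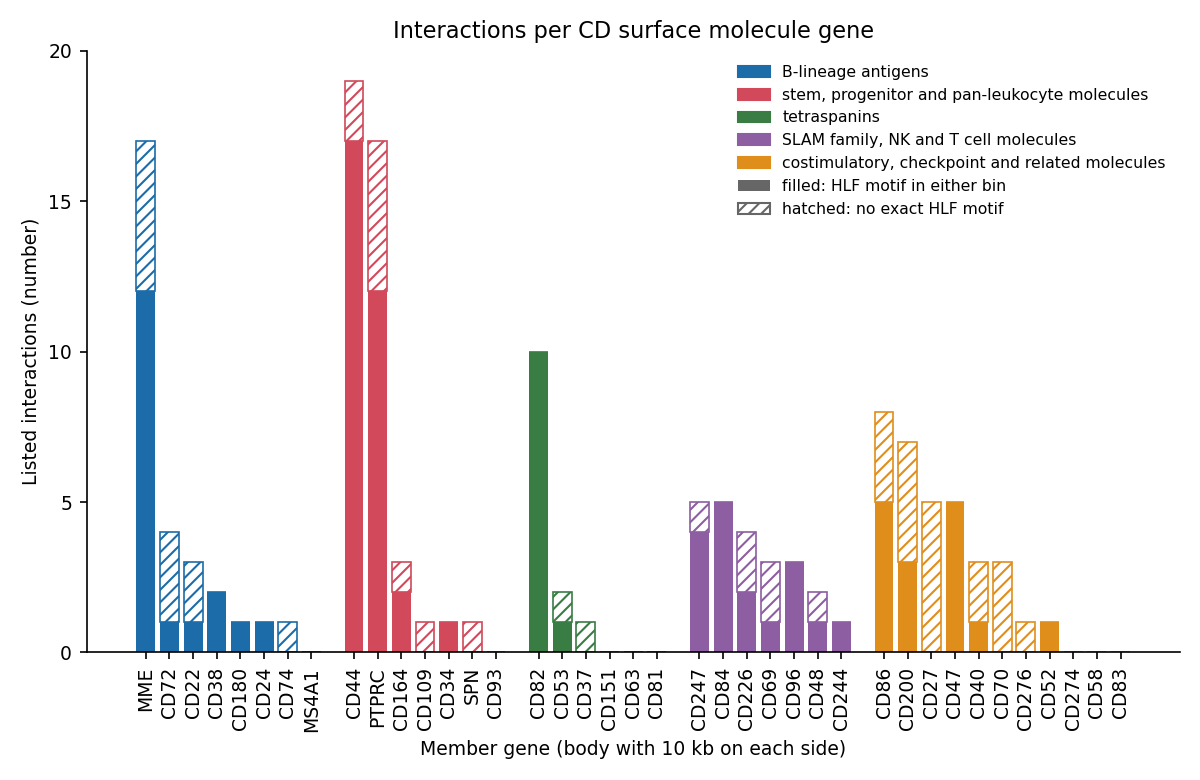
Number of listed interactions (y axis) for each of the 39 members (x axis), with bars in the color of the gene's role group. The bars fall from 19 for CD44 to 1 for 10 members, and 8 members have no bar.

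By role, the 7 stem, progenitor and pan-leukocyte molecules had 42 interactions, with 6 genes contributing. The 11 costimulatory, checkpoint and related molecules had 33 from 8 genes, the 8 B-lineage antigens 29 from 7 genes, the 7 molecules of the SLAM family and of NK and T cells 22 from all 7 genes, and the 6 tetraspanins 13 from 3 genes. The stem and pan-leukocyte group stayed highest at 7.69 interactions per 100 kb and the costimulatory group followed with 6.18. The B-lineage group had 5.70 and the tetraspanins 5.29. The SLAM, NK and T cell group had the lowest value, 2.59, or 2.71 with the interaction shared by CD48 and CD84 counted for both. This order rests on a leading gene in several groups, since the value was 5.31 in the stem and pan-leukocyte group without CD44, 3.65 in the B-lineage group without MME and 1.77 in the tetraspanins without CD82.

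The contact count of an interaction is the number of read pairs that joined its bins. It ranged from 13 to 82 over the member interactions, with a median of 25, against a median of 24 over the whole list. The contact counts of the members added up to 3777 read pairs of 1268490 in the list. The bins lay 50 to 2995 kb apart, with a median of 195 kb against 255 kb in the whole list, and 14 interactions (10.1%, against 13.7%) spanned more than 1 Mb. Because contact counts fall with distance, each was divided by the median of all listed interactions at the same distance. This ratio had a median of 1.02 for the members, so as a list they were contacted about as often as other listed pairs at their distances. At 50 to 100 kb the members had a median contact count of 29 in 30 interactions (26 in the whole list), and above 1 Mb 18.5 in 14 interactions (21 in the whole list). The ratio was at least 2 in 6 member interactions (4.32%, against 3.20%), and the same 6 were those with a contact count of at least 50 (against 2.83%). They belonged to CD72, CD86 with 3, PTPRC and CD84. An exact Poisson 95% interval, which covers counting error only and does not account for copied read pairs, ran from 6.92 to 22.2 for the smallest contact count of 13 and from 65.2 to 102 for the largest of 82. Counts in the middle of the range are thus not distinguishable from each other, whereas the 6 largest stand apart from the smallest.

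**Figure D2:**
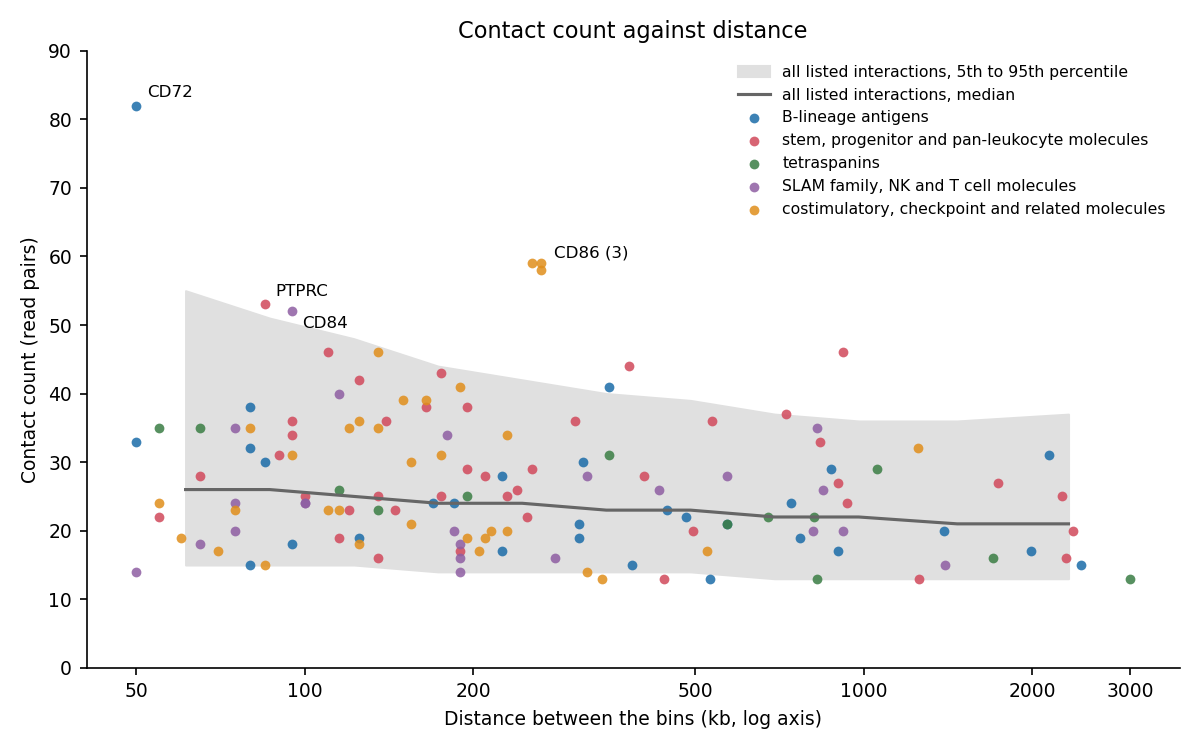
Contact count (y axis, read pairs) against the distance between the bins (x axis, kb) for the member interactions, in the color of the role group, with the median of the whole list by distance class as a line and its 5th to 95th percentiles as a grey band; the x axis is logarithmic. CD72 at 50 kb (82) and CD86 at 255 and 265 kb (58 to 59) lie farthest above the line.

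An exact HLF motif was found in at least 1 bin of 92 member interactions (66.2%, Wilson 95% interval 58.0 to 73.5), against 66.8% of the whole list, and in both bins of 20 (14.4%, against 16.2%). These shares are near the background. The motif was in the partner bin alone in 47 interactions, in the member bin alone in 25 and in neither bin in 47. Among the role groups the share was highest in the tetraspanins (84.6% of 13 interactions, interval 57.8 to 95.7) and lowest in the costimulatory group (45.5% of 33, interval 29.8 to 62.0). For the latter, the interval lay below the share of the whole list, but this rests on 1 repeated bin: without the 5 interactions of CD27, which all use a bin beyond the gene at the start of TAPBPL, the share was 53.6% of 28 (interval 35.8 to 70.5). The tetraspanin share rests on CD82, and without it 1 of 3 interactions had a motif. The stem and pan-leukocyte group (76.2%, interval 61.5 to 86.5), the SLAM, NK and T cell group (72.7%, interval 51.8 to 86.8) and the B-lineage group (62.1%) had intervals that included it. Interactions of a gene often share a bin and hence its motif, so these intervals, computed as if interactions were independent, are too narrow. CD44, with 17 of 19 interactions, CD82 with 10 of 10, CD47 with 5 of 5 and CD84 with 5 of 5 had motifs in almost all interactions, whereas CD27 (5 interactions) and CD70 (3 interactions) had none.

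A transcription start site of the member, counting all annotated transcripts, lay in a bin of 49 interactions from 14 members, or 35.9% of the 39, against 26.6% of protein-coding genes. Many of these were internal starts, meaning starts of annotated transcripts other than the outermost start of the gene. An internal start can belong to a main transcript, and which starts are used in these cells was not measured. The start of the annotated gene itself was in a bin of 10 interactions from 7 members, against 13.5% of protein-coding genes: CD82 had 4, and CD24, CD40, CD44, CD72, CD74 and CD247 had 1 each. For 8 members an interaction joined a start site of the gene to a partner bin with a motif. The share over all protein-coding genes is not available for this count, so it is a description only. The strongest such interaction of each member had contact counts of 58 for CD86, 42 for CD44, 39 for CD47, 35 for CD82, 33 for MME, 24 for PTPRC, 21 for CD24 and 16 for CD247. The member bins outside the gene body, 38 of 140 gene and interaction pairs, need not concern the member. In 10 of them, from 6 members, the bin overlapped another protein-coding gene, and in 8 it held a start site of that gene.

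The interactions of the members used 88 distinct member bins, of which 70 had only 1 interaction in the whole list. Most bins of the list were alike in this: of 53535 bins ranked by number of interactions, those with 1 began at rank 11791. The highest number in a member bin was 9, in a bin of MME and a bin of PTPRC, at rank 1127 of all bins. Partner bins were more often shared with other loci: 19 of 114 had 10 or more interactions in the list, and 38 member interactions (27.3%, against 32.0%) ended in such a bin. The members with most interactions differed in this respect. CD44 reached only 6 partner bins from 17 bins along the gene, and CD47 reached 1 partner bin from 5 bins. MME and PTPRC had the opposite layout, with 5 and 6 member bins connected to 17 partner bins each, as did CD84 and CD27, which used 1 bin for 5 partners.

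**Figure D3:**
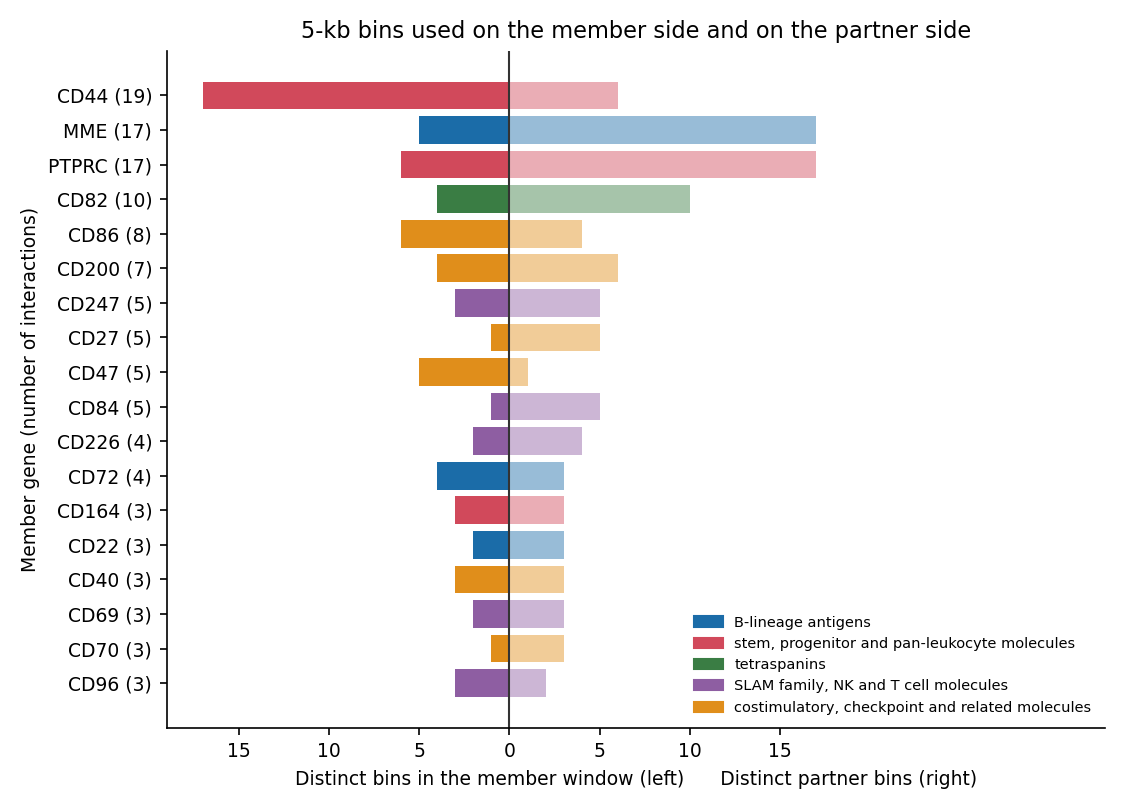
Distinct 5-kb bins in the window of the member (left of 0) and distinct partner bins (right of 0) for the 18 members with 3 or more interactions; the number of interactions is given in parentheses. CD44 has 17 member bins and 6 partner bins, CD47 has 5 and 1, and MME and PTPRC have 17 partner bins each.

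CD44 lies on the plus strand of chr11:35138882-35232402. Its strongest partner was the bin chr11:35340001-35345000 in SLC1A2, which encodes a glutamate transporter. This bin held 4 HLF motifs, of which 2 are printed above, and had 28 interactions in the list, 5 of them with CD44. Their contact counts were 46, 43, 38, 36 and 23 at distances of 110 to 195 kb. The adjacent bin, chr11:35335001-35340000, joined an internal start of CD44 with 42. On the other side of CD44, the bin chr11:34985001-34990000 in PDHX, which encodes a component of the pyruvate dehydrogenase complex, had 23 interactions, 6 of them with CD44, with contact counts of 38, 28, 25, 25, 22 and 17. A second PDHX bin gave 26. The stretches between PDHX and CD44 contributed the bin chr11:35075001-35080000 without a motif (36, 28 and 16) and the bin chr11:35040001-35045000 with the TTACGTAA printed above (34, 29 and 23). The last of these bins reached the bin of the CD44 gene start with 34 (interval 23.6 to 47.5). The intervals of the strongest interaction of each of the 6 partners overlapped. For the 19 interactions, no protein-coding gene other than CD44 itself started between the bins, and no interaction exceeded 250 kb. The partners were also joined to each other: the PDHX bin to the adjacent SLC1A2 bin with a contact count of 54, and the bin at 35075001 to the SLC1A2 bin with 33. The contacts thus covered CD44 from both sides, with 13 interactions toward the upstream and 6 toward the downstream side.

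PTPRC, on the plus strand of chr1:198638457-198757476, had its contacts concentrated in 2 bins. The bin chr1:198655001-198660000 within the gene held no motif and had 9 interactions, with contact counts of 53, 29, 28, 27, 25, 25, 25, 22 and 19. The largest, 53 (interval 39.7 to 69.3), joined it to an intergenic bin with a motif 85 kb away, upstream of the gene, and was 2.04 times the median at that distance. Its other partners included bins in NEK7, a mitotic kinase gene, DENND1B and ATP6V1G3. The bin chr1:198710001-198715000 contained an internal start and 3 motifs and had 4 interactions with contact counts of 37, 24, 20 and 13. It reached bins downstream of PTPRC at 725 and 935 kb, with no protein-coding gene starting in between, and CACNA1S at 2365 kb. Interactions of 3 other gene bins were also directed downstream, with 36 at 535 kb, 33 at 835 kb and 16 at 2300 kb. In total, 9 of 17 interactions of PTPRC exceeded 500 kb, and 12 of 17 had a motif, 9 of them in the partner.

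The other stem and pan-leukocyte members had few contacts. CD164, a sialomucin of progenitor cells, had 3. Its strongest, with a contact count of 46 (interval 33.7 to 61.4), linked the gene's downstream flank at 920 kb to a bin in AFG1L that had 17 interactions and held the TTACGTAA printed above. It was 1.84 times the median at that distance. The other partners, SESN1 (36) and ARMC2 (20), were contacted from bins in the upstream flank, the latter from a bin that overlaps PPIL6. SPN, a sialomucin that covers T cells and progenitors, had 1 interaction, from a bin in its upstream flank to the start of TLCD3B. Its contact count was 44 at 380 kb, 1.91 times the median, without a motif. The strongest contacts of both were thus above the median for their distance, whereas the ARMC2 interaction of CD164, with a ratio of 0.87, was below it. CD109, a GPI-anchored protein, had 1 with SLC17A5 (31 at 90 kb). CD34 had 1, with 13 read pairs at 1255 kb, which is among the weakest of the members, and CD93 had 0.

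**Figure D4:**
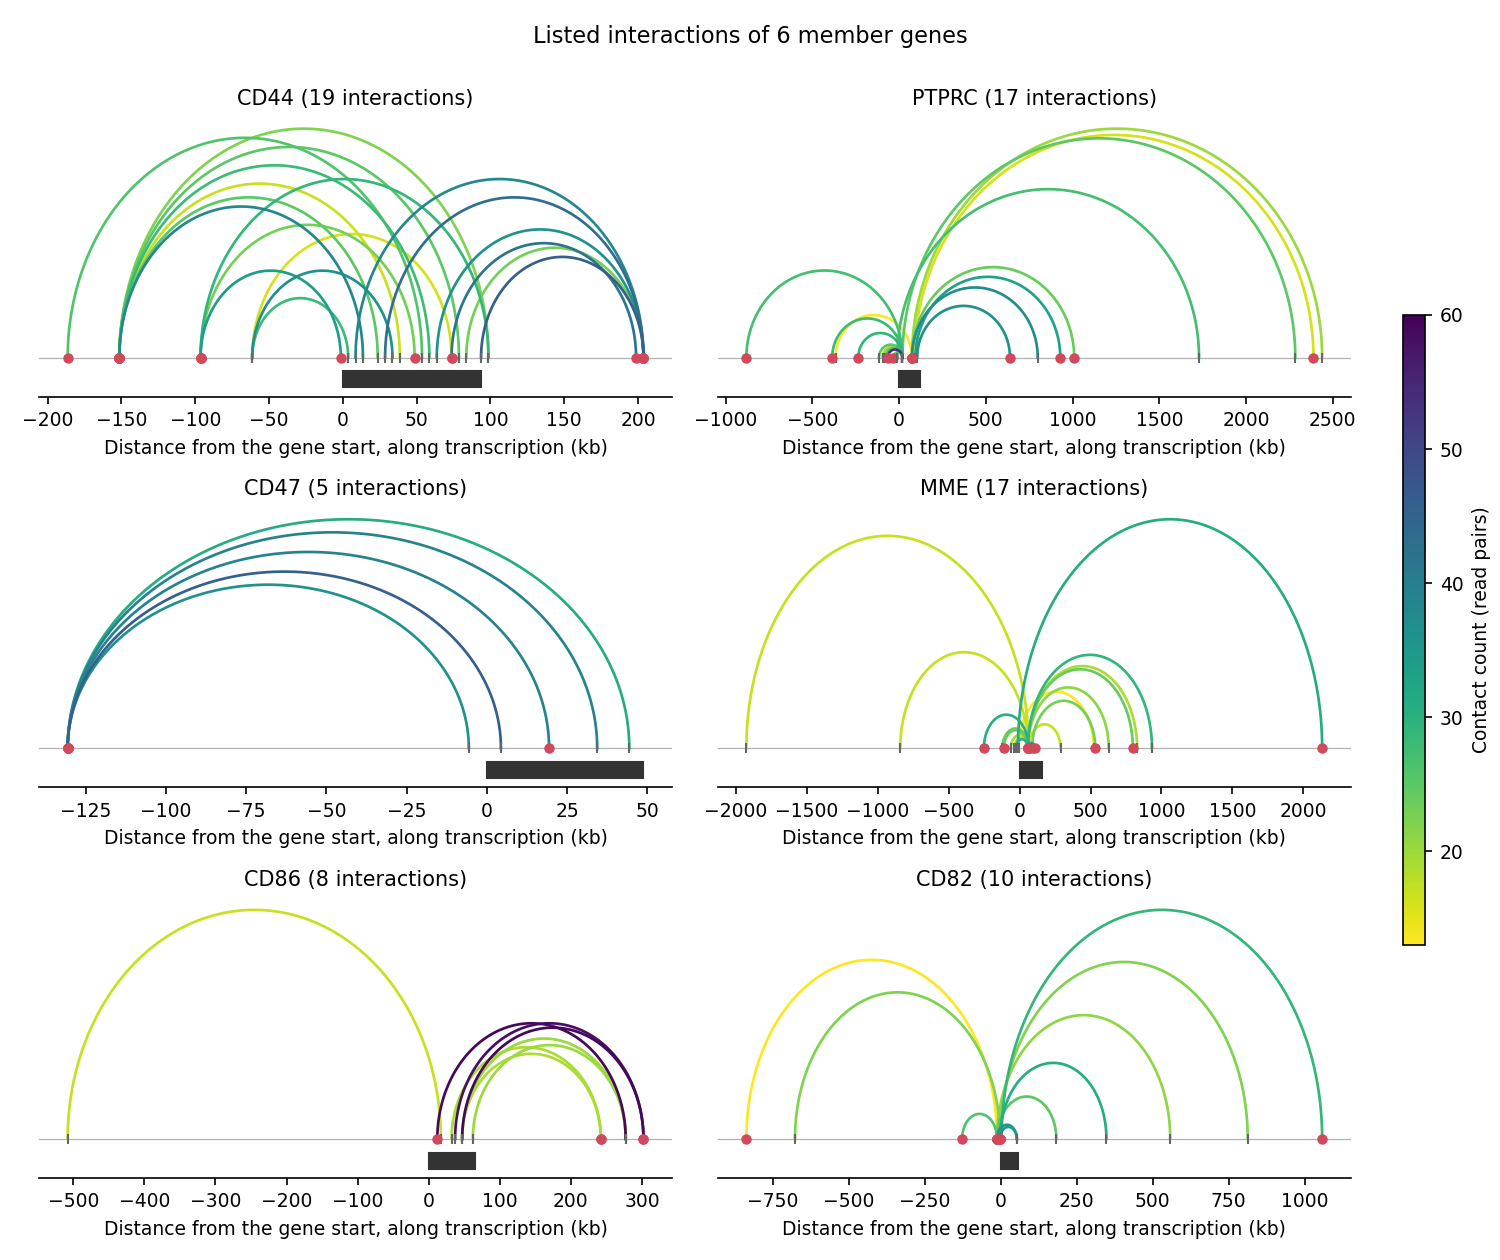
Listed interactions of 6 members as arcs between bins; the x axis gives the distance from the start of the gene in kb along the direction of transcription, the color of an arc is its contact count, the height of an arc is scaled to its span in each panel, the black bar is the gene body, red dots are bins with an exact HLF motif and grey ticks bins without. The arcs of CD44 converge on few partner bins on both sides of the gene and those of CD47 on 1 bin, whereas those of MME and PTPRC spread from few gene bins.

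Of the B-lineage antigens, MME had the most interactions. The gene lies on the plus strand of chr3:155024124-155183704, and none of its interactions used the bin of the annotated gene start. Of the 17, 14 came from adjacent bins at internal starts of the gene: chr3:155080001-155085000, with the motif printed above, had 9 with contact counts of 33, 30, 29, 24, 24, 21, 19, 18 and 17, and the next bin had 5 with 30, 24, 19, 17 and 17. The strongest ended within MME itself, at 50 kb, where the partner bin also held a motif. Apart from the strongest and the weakest interaction, with intervals of 22.7 to 46.3 and 6.92 to 22.2, the intervals overlapped. Partners lay on both sides, 8 upstream and 9 downstream, and 8 of the 17 interactions exceeded 500 kb. They included 3 bins in PLCH1, a phospholipase C gene (23, 21 and, from the upstream flank, 13), and 2 bins at SLC33A1, an acetyl-CoA transporter gene (24 and 19). Others were ARHGEF26 (17) and, from the upstream flank, CCNL1 at 2145 kb (31). A PLCH1 bin was the only partner of MME with many interactions in the list (20).

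CD72, an inhibitory coreceptor of B cells, had the strongest interaction of all members. The bin chr9:35615001-35620000, with an internal start of CD72, was joined to a bin 50 kb away by 82 read pairs (interval 65.2 to 102), which was 3.04 times the median at 50 kb. The merged group of neighboring bin pairs around it had a sumCC, the summed contact count of the group, of 180. The bin of the CD72 gene start, which also overlaps SIT1, contacted the same partner with 32. In the flanks, 2 bins contacted UNC13B with 22 and 15, and the bin with 22 holds the start of SIT1. The largest count was thus higher than the 3 others beyond counting error. No motif occurred in the strongest pair, and the only motif in a CD72 interaction was in a UNC13B bin.

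The remaining B-lineage antigens had 1 to 3 interactions or none. CD22, a sialic acid-binding inhibitory receptor, had contact counts that included 38 at 80 kb and 15 with ZNF573 at 2445 kb. CD38, an NAD-consuming ectoenzyme, was joined to PROM1, which encodes the stem cell antigen CD133, with 28 (interval 18.6 to 40.5) at 225 kb, and the PROM1 bin held the motif printed above. A second interaction with a count of 15 had motifs in both bins. CD74, the invariant chain of MHC class II, had 1, which joined its gene start to an intergenic bin at 350 kb with 41 (interval 29.4 to 55.6), or 1.86 times the median, without a motif. CD24, a GPI-anchored sialoglycoprotein, had 1, between its gene start and QRSL1 (21 at 310 kb), with a motif in the QRSL1 bin. CD180, a Toll-like receptor homolog, had 1, from its upstream flank to the start of NLN (20 at 1390 kb), a bin with 21 interactions in all. MS4A1 had 0. Only CD72, CD74 and CD24 of this group were contacted at the annotated gene start.

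The tetraspanins organize other membrane proteins in microdomains. CD82 had 10 of the 13 interactions of this family and a motif in every one. Its member bins were the upstream bin chr11:44550001-44555000 and the bin of the gene start, chr11:44560001-44565000, each with a motif, and 2 bins in the gene. The contact counts were 35, 35, 31, 29, 26, 25, 22, 22, 21 and 13. Both interactions with 35 joined the upstream and start bins to the 3′ part of CD82 itself at 55 and 65 kb. Those with 31 and 25 went to bins that overlap TSPAN18, another tetraspanin gene, and the bin with 31 overlaps TP53I11 as well. The weaker ones went to ALKBH3 (22), LINC02687 (22), PRDM11 (21) and HSD17B12 (13). CD37 had 1 interaction, from a bin in its downstream flank that overlaps TEAD2 to FLT3LG, the gene of the FLT3 ligand (23 at 135 kb). CD53 had 2 of the longest among the members, 1705 kb (16, ELAPOR1, from its upstream flank) and 2995 kb (13, AP4B1-AS1 and BCL2L15). CD63, CD81 and CD151 had 0.

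The SLAM family genes form a cluster on chromosome 1, and their products are receptors that mostly bind their own kind on neighboring hematopoietic cells. CD84 used a single intronic bin, chr1:160565001-160570000, with 2 motifs, 1 of them printed above. Its contact counts were 52, 40, 24, 24 and 20 at 75 to 115 kb. The largest, 52 (interval 38.8 to 68.2), had a ratio of 2 to the median and led to an intergenic bin with a motif. The other partners included SLAMF6 (24), SLAMF1 (20) and the downstream flank of CD48 (24, interval 15.4 to 35.7, at 100 kb). That CD48 and CD84 interaction was the only one that joined 2 different members. The upstream flank of CD48, a GPI-anchored ligand of CD244, also contacted SLAMF1 with 35. Together, 4 listed interactions joined SLAMF6, CD84, SLAMF1 and CD48 to each other. CD244, at the far end of the cluster, was not among them and had 1 interaction outside it, with a count of 14 at 190 kb.

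CD96 and CD226, receptors of NK and T cells for nectin family ligands, had 3 and 4 interactions. Those of CD96 were long, 810 to 920 kb, with contact counts of 26, 20 and 20, and each had motifs in the bin on the CD96 side, which in the third case lay in the downstream flank at the start of PLCXD2. The partner of the first 2 was the bin chr3:112375001-112380000, with the TTACGTAA printed above and 17 interactions in all, just beyond the window of CD200. The partner of the third was a BTLA bin that bins in the flanks of CD200 also contacted. CD226 had low contact counts of 18, 16, 15 and 14, all below the median for their distance, and 3 of them joined it to DOK6 or within its own window. CD247, the zeta chain of the T cell receptor complex, had 35 at 825 kb, 26 with GPA33, 20 and 16 with RCSD1, and 18 with POU2F1, the gene of the octamer factor OCT1. An intronic bin with 2 motifs supplied 3 of these. CD69, an early activation antigen in the C-type lectin cluster, had 34 with CLEC2A, 28 with a bin that overlaps CLEC1A and CLEC9A and 28 at 570 kb. All interactions of CD69 used bins in its flanks, and none used its start site.

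Among the costimulatory and checkpoint molecules, CD86 had 8 interactions in 2 distinct ranges of contact count. The 3 strongest had 59, 59 and 58 (interval 44.9 to 76.1 for a count of 59), or 2.46, 2.41 and 2.37 times the median at 255 and 265 kb. The other 5 had 20, 20, 19, 19 and 17, with an interval of 12.2 to 30.9 for a count of 20, so the difference exceeded counting error. Of the strongest, 2 led to the bin beside MIX23 with the motif printed above and 1 to CSTA, which encodes the protease inhibitor cystatin A. The weaker ones led to the same CSTA bin (20 and 20), to an intergenic bin with 3 motifs (19 and 19) and to POLQ, a DNA polymerase gene, on the other side at 525 kb (17). The bin of the annotated gene start was not used.

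All 5 interactions of CD47 ended in 1 bin, chr3:108220001-108225000, at the start of IFT57, a gene of intraflagellar transport. The bin had 25 interactions in the list and the TTACGTAA printed above. From 5 bins along CD47 and its upstream flank, the contact counts were 46, 39, 39, 36 and 31 at 125 to 175 kb, or 1.27 to 1.84 times the median. All intervals overlapped, so no bin of CD47 was preferred beyond counting error. Of these bins, 1 had an internal start of CD47 and none had the gene start. No other protein-coding gene started between the joined bins. The gene start of CD47 itself lay between them for every bin except that in the upstream flank.

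CD200, a ligand that inhibits myeloid cells, had 7 interactions, with contact counts of 41, 35, 35, 24, 23, 21 and 18 within 190 kb. Only the weakest, with 18, used a bin in the gene body, and the others used bins in the flanks. The 4 strongest came from 1 bin in the downstream flank. The strongest joined this bin to ATG3 and SLC35A5. BTLA, the gene of an inhibitory receptor of lymphocytes, held the partner bins of 4 interactions at 115 to 155 kb. The merged group that holds both interactions with 35 had the largest sumCC of the members, 394, and that of the BTLA interaction with 23 had 289. The next largest sumCC, 201, was that of a group shared by 2 interactions of CD44. The 2 groups of CD200 extend to 112380000 and 112385000, beyond its window. Their sums thus include contacts of bins that were not assigned to CD200. Counting CD96 as well, 6 listed interactions joined the windows of CD96 or CD200, most of them from flank bins, to the surroundings of BTLA.

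CD27, a receptor of the TNF family, and CD70, its ligand, had 5 and 3 interactions, none of them with a motif. The single bin of CD27, in its downstream flank, holds the start of TAPBPL and overlaps VAMP1, and contacted LTBR, which encodes the lymphotoxin β receptor (35), NCAPD2 (19), an intergenic bin (17), GAPDH (17) and IFFO1 (15). CD70 was contacted at an internal start, with 23 at 75 kb, 14 with ADGRE1 and 13 with MLLT1. CD40, the receptor of B cells for T cell help, had 34 with SLC35C2 from an internal start and 32 with YWHAB at 1250 kb from its downstream flank. From its gene start it had 23 with MMP9, a matrix metalloprotease gene. Only the YWHAB bin had motifs, 3 in number. CD276 had 1 interaction with NPTN (31 at 95 kb), and CD52, a target of therapeutic antibodies, had 1 from an upstream bin at the start of UBXN11 (30 at 155 kb). CD58, CD83 and CD274, the gene of PD-L1, had 0.

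The 8 members with no listed interaction were MS4A1, CD274, CD83, CD93, CD151, CD63, CD81 and CD58. The nearest bin of any interaction was 19.2 kb from MS4A1, 20.5 kb from CD274, 23.1 kb from CD83 and 23.7 kb from CD93. It was 80.2 kb from CD151, 85.3 kb from CD63, 107 kb from CD81 and 199 kb from CD58. The first 4 therefore missed the rule by a short distance. In each of the 8, the nearest bin had 1 interaction in the list, with contact counts from 16 to 35. The list holds pairs that passed the q-value threshold, so weaker contacts of these genes are not described.

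The other genes with a CD number gave a similar picture. Of 43, 33 (76.7%, interval 62.3 to 86.8) had at least 1 interaction, against 79.5% of the members. CD1B, a lipid-presenting molecule, had 15, of which 14 used its start site, and CD6, a T cell coreceptor, had 11. They were the 2 genes of that list with 10 or more. CD79A, a chain of the B cell receptor, had 4, and CD79B, CD4, CD8A and CD68 had 0.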

How the data were processed

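HiChIP with an anti-TCF3 (E2A) antibody was performed in TCF3_KO HAL-01 cells. The authors trimmed reads with TrimGalore (version 0.6.6), merged 2 replicates, mapped them with BWA-MEM (hg38) and parsed pairs with pairtools without removing copies. MACS2 peaks served as reference for FitHiChIP, run on 5-kb bins at 50 kb to 3 Mb and a q-value under 0.01. The FitHiChIP version is not given in the sources used here. The authors deposited 1 list, with unnormalized contact counts, their sum over merged neighboring pairs (sumCC), bin positions, a p-value and a q-value from the FitHiChIP background, and the fraction of significant pairs in a merged group.

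Bins were overlapped with GENCODE release 44 genes. Motifs were exact matches on both strands. Single counts have exact Poisson and shares Wilson 95% intervals, which cover counting error only. Contact counts were divided by the median of all interactions at the same distance. In 0 member interactions did the bins share 500 or more 31-mers. Described in full are the strongest interaction of the 10 members with most interactions, the 10 with the largest contact count, the 5 each with the largest ratio or sumCC, those joining 2 members, and the strongest of each member joining a start site to a motif. Loci with shared partner bins were chosen after their values were seen, and members, role groups and gene lists were chosen with earlier results of these data known. Alternatives changed the q-value, contact count, distance, window, motif and bin definition. Overlap and motif code was tested on simulated data. Reads and contact maps were not analysed here, and 1 interaction of CD22 is not reported here. Versions were 3.11.15 for Python, 2.4.6 for numpy, 2.3.3 for pandas, 1.17.1 for scipy, 0.14.6 for statsmodels, 0.9.0.4 for pyfaidx, 1.23.1 for samtools and 3.10.9 for matplotlib.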

Additional observations from a re-analysis of the deposited data

How the results depend on the processing

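Of 64 values under alternatives, 55 stayed within the spread or within 1.5 times of the value given and 9 moved. The number of member interactions rose from 139 to 210 with 25 kb around the gene bodies. The median contact count moved from 25 to 29 for contact counts of at least 20 and to 29.5 for q below 1e-05, and the median ratio from 1.02 to 1.21 and 1.22. These rises follow from the filters, which remove weak pairs, while the ratio still used the median of the unfiltered list. They do not compare the members with other strong pairs. Interactions with a start site, 49, were 98 with bins within 10 kb of a start and 10 with the start of the annotated gene alone. The share with an HLF motif was 89.9% for the forms of 7 letters and 9.35% for TTACGTAA alone. Without CD44, MME or PTPRC, chosen to be left out after seeing the data, the share was 62.5 to 65.6%. Leaving out the leading gene of each role group, or CD27, was also chosen after seeing the data, and the report gives the values without CD44, MME, CD82 and CD27. No paired analysis was possible because the authors merged the replicates before calling, and values without either replicate could not be computed. The depth of 13 to 82 read pairs per interaction does not resolve differences among most interactions of a gene.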

Other observations

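The C-type lectin genes beside CD69 on chromosome 12, a family of receptors of NK and myeloid cells, had 16 interactions within their 485 kb, of which 9 joined different genes of the cluster. CD69 took part in 2 of these. The strongest joined CLEC2A to the bin at CLEC1A and CLEC9A with a contact count of 47, and CLEC2A was joined to CLEC12A with 35. The SLAM cluster, 398 kb long, had 4 interactions within it. The window also limits what is counted for the members. In 35 interactions the nearest bin lay 10 to 15 kb from a member body, with a median contact count of 27 and a maximum of 95. They were not counted for that member, but some were counted for another. Among these are the 2 interactions of CD96 with the bin chr3:112375001-112380000, just beyond the window of CD200. That bin alone had 17 interactions in the list, with a maximum of 95. The 23 interactions at 5 to 10 kb, which were counted, had a median of 26 and a maximum of 46. The pair with 95 lay in the region of CD96, CD200 and BTLA, where 23 interactions had both bins within the region.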
